A study of Rattus norvegicus with 18 samples.

Results

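Renal tubule transcription factors are DNA-binding proteins that set and keep the identity of the nephron's epithelial cells. The 8 genes described here were Hnf4a, Hnf4g, Pax2, Pax8, Lhx1, Pou3f1, Pou3f3 and Esrrg. Their rows were taken by symbol, and the list was chosen with earlier results of these data known. All 8 were among the 18420 gene rows of the deposited table. Their messenger RNA was measured by RNA-seq in the cortex of kidneys from ZDF (Zucker diabetic fatty) rats, whose fa allele of the leptin receptor gene causes obesity and diabetes in fa/fa animals. The RYGB group was fa/fa rats after Roux-en-Y gastric bypass surgery, still labelled diabetic. The disease group was diabetic fa/fa rats labelled as disease controls. The healthy control group was lean, non-diabetic fa/+ rats. Each group had 6 libraries, and all 18 came from animals carrying at least 1 fa allele. The labels used here give no age, sex or batch, and do not state that each library came from its own animal, so the p-values speak of the spread among libraries, which may be technical.

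The kidney's epithelium derives from cells in which the paired-box factors PAX2 and PAX8 act together, and LHX1, a LIM-homeodomain factor, is needed in mice for the early nephron to take shape. HNF4A, a nuclear receptor, is required in mice for proximal tubule cells to mature, and HNF4G is its close relative. POU3F3, a POU-homeodomain factor also called BRN1, is needed in mice for the loop of Henle and distal tubule. Its relative POU3F1, also called OCT6 or SCIP, is best known from the Schwann cells that wrap nerves, and ESRRG is an orphan nuclear receptor known for its control of mitochondrial genes.

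Promoter windows from 250 bases before to 50 bases after an annotated start were matched for 5 of the 8 members, Hnf4a, Pax2, Pax8, Lhx1 and Esrrg, in RefSeq (build GRCr8). They are printed for the paired-box relatives Pax2 and Pax8, and for Hnf4a, whose gene count pools transcripts from 2 annotated starts. Capitals mark matches to 5 short motifs searched on both strands: the nuclear receptor half-site AGGTCA, the octamer ATGCAAAT bound by POU factors, TATAAA, the GC box GGGCGG and CCAAT. Windows are given 5′ to 3′ on the gene's strand.
Pax2 (chr1:253565672-253565971, plus strand): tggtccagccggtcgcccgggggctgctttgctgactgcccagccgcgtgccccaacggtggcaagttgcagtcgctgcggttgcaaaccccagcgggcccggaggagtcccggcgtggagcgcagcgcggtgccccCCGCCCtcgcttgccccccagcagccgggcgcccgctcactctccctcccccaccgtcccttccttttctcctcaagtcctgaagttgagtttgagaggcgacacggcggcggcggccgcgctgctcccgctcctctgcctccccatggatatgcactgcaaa
Pax8 (chr3:27640582-27640881, minus strand): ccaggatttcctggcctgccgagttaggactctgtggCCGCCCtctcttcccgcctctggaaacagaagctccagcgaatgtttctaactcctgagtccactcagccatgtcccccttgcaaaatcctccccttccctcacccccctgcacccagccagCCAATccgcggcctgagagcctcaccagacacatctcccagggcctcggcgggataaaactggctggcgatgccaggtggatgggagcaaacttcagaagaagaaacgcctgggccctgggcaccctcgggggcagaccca
Hnf4a upstream start (chr3:172605970-172606269, plus strand): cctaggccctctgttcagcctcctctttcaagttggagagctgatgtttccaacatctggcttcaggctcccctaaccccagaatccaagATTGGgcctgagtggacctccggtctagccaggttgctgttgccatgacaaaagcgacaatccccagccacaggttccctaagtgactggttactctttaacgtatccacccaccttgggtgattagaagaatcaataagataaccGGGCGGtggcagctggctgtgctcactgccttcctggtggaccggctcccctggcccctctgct
Hnf4a downstream start (chr3:172641586-172641885, plus strand): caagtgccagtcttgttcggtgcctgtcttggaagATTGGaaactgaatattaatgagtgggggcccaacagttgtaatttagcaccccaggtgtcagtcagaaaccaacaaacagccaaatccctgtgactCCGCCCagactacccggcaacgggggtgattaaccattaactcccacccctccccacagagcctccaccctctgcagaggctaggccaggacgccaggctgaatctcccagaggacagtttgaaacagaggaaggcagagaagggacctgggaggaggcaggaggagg

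The octamer was in 0 of the 9 windows of the members, and in 1.78% of all 33469 windows in the table. CCAAT was in the Pax8 window on the gene’s strand and in both Hnf4a windows on the opposite strand, and in 37.5% of all windows. No 2 matches in the printed windows overlapped. The GC box was in all 4 printed windows, and in 33.1% of all windows. These matches describe letters only and do not show that a factor binds there. The deposited counts are per gene, so which of the Hnf4a starts was used could not be read from them.

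The depth per library, as reads assigned to genes, was 12470525 to 42713246 for RYGB, 8157977 to 37142922 for disease and 8116638 to 34169198 for healthy control. All 8 members passed the filter on low values, and the fewest reads behind a member's value were 10, for Pou3f1 in disease replicate 1. The summed level of 19 proximal tubule genes was between 284882 and 955278 normalised reads per library. It alone does not show how much medulla a library held. In RYGB, the sum of 6 inner medulla and papilla genes was 3433 and 3453 in replicates 2 and 4. The other RYGB libraries had 1262 to 1690, disease 970.9 to 2015 and healthy control 1426 to 2655. RYGB replicates 2 and 4 also had the highest Pou3f1 (382.8 and 270.5) and Pou3f3 (629 and 643) of their group. Whether these go together was not tested. Of 8 markers of skeletal muscle, liver and fat, Adipoq was at 219.4 to 800.1 normalised reads, Alb reached 134.7, Plin1 was at 0 in 15 libraries and the other 5 stayed at or below 21.3. Among the libraries that differed from the rest of their group, healthy control replicate 4 had a summed level of 7 fibroblast and pericyte genes of 6091, against 11369 to 11785 in the other healthy control libraries. Healthy control replicate 1 had 43.2% of its reads outside genes, against 31.2 to 34.4% in the others of its group, and a summed level of 7 podocyte genes of 35178, against 14607 to 23520. Between RYGB and healthy control 621 genes were called with all libraries, 1506 without healthy control replicate 4, 1398 without RYGB replicate 3, 1048 without disease replicate 6 and 209 without healthy control replicate 1. Leaving out any other single RYGB or healthy control library gave 216 to 355, and values without a library are given where it moves a call. In bulk cortex, fewer cells of a type and less RNA per cell cannot be told apart.

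Values below are the deposited normalised read counts, which are whole reads divided by a single factor for each library. Fold changes are log2 differences of value + 1 with their standard error (SE) from limma, adjusted over all 13988 tested genes, and an adjusted p below 0.05 made a call.

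Of the POU-homeodomain genes, Pou3f1 set RYGB apart from disease and Pou3f3 did not. Pou3f1 had a lowest, median and highest value of 93.46, 140.1 and 382.8 in RYGB, of 24.91, 39.49 and 83.24 in disease and of 50.43, 76.75 and 225.7 in healthy control. All 6 RYGB libraries lay above all 6 disease libraries, while healthy control overlapped both groups. The RYGB mean of 192.6 ± 111 was 4.04 times the disease mean of 47.64 ± 22.9 (SD, n = 6 each), and the healthy control mean was 109.5 ± 70.2. Pou3f1 rose in RYGB against disease by 1.95 ± 0.39 on the log2 scale (adjusted p = 0.00878, limma). It was called in all 10 alternative settings and in all 18 fits that left out 1 library. In disease against healthy control its fold change was -1.09 ± 0.39 and not called (adjusted p = 0.242), with 4 of 6 disease libraries below the lowest healthy control library. In RYGB against healthy control it was 0.85 ± 0.39 (adjusted p = 0.175), and 1.105 without healthy control replicate 4 (adjusted p = 0.0645), the highest library of that group.

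Pou3f3 followed the same order of group means over a narrower range. Its lowest, median and highest values were 401, 478.4 and 643 in RYGB, 203.7, 318.8 and 547.3 in disease and 320.5, 390 and 453.8 in healthy control. The groups overlapped in all 3 comparisons, and disease spanned the whole range of healthy control. The fold change of RYGB against disease was 0.59 ± 0.20 and was not called (adjusted p = 0.107). Without disease replicate 5, the highest disease library at 547.3, it was 0.73 and called (adjusted p = 0.0301). Disease against healthy control gave -0.23 ± 0.20 (adjusted p = 0.722) and RYGB against healthy control 0.35 ± 0.20 (adjusted p = 0.265).

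**Figure D1:**
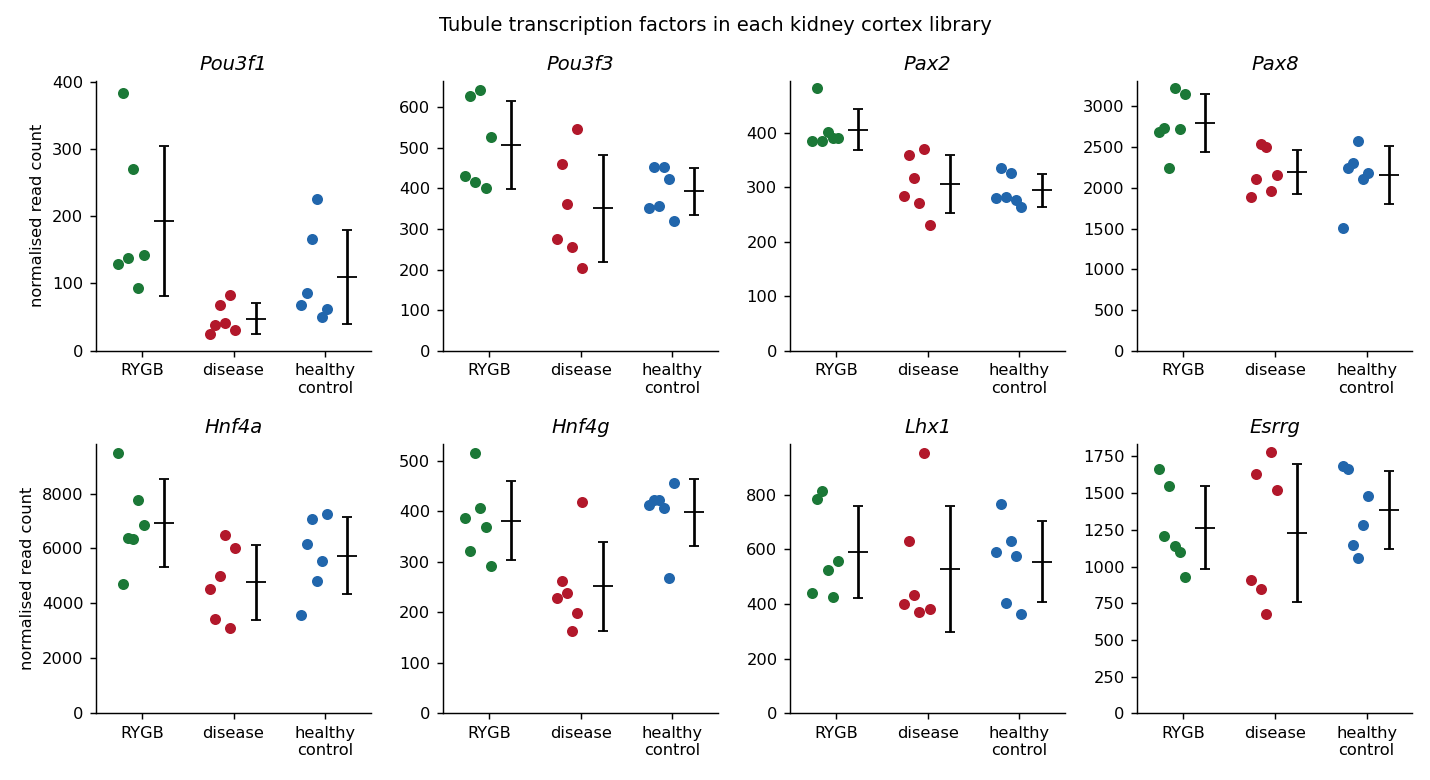
Normalised read counts (vertical axes, linear from 0) of the 8 genes in RYGB, disease and healthy control, 1 point per library, with the mean and SD of 6 libraries beside the points. Pou3f1 and Pax2 are higher in all RYGB libraries than in all disease libraries; in Pax2 the healthy control libraries also lie below RYGB.

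The paired-box genes had their highest mean levels in RYGB, and their means in disease and healthy control were close to each other. Pax2 had a lowest, median and highest value of 383.6, 390.3 and 481.9 in RYGB, of 230.8, 300.4 and 370 in disease and of 263, 281.3 and 335.4 in healthy control. Every RYGB library was above every library of the other groups, and disease and healthy control overlapped. The means were 405.2 ± 38.0 in RYGB, 305.4 ± 53.7 in disease and 293.8 ± 29.6 in healthy control (SD, n = 6 each). In RYGB against healthy control Pax2 rose by 0.46 ± 0.12 (adjusted p = 0.035, limma). The call was lost without RYGB replicates 1, 2, 4, 5 or 6 or healthy control replicates 1, 3, 5 or 6 (adjusted p = 0.0579 to 0.0822) and when values were scaled by the total in genes (adjusted p = 0.0918), with fold changes of 0.41 to 0.48 in these fits. In RYGB against disease the fold change of 0.42 ± 0.12 just missed the threshold (adjusted p = 0.0504). It was called by edgeR (adjusted p = 0.0471), by DESeq2 (0.0134), after quantile normalization (0.0482) and without RYGB replicate 3 (0.049), disease replicate 5 (0.0259) or healthy control replicate 4 (0.0431). In disease against healthy control the fold change was 0.04 ± 0.12, with a 95% interval from -0.20 to 0.29.

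Pax8 showed a similar order but was not called. Its lowest, median and highest values were 2239, 2735 and 3226 in RYGB, 1889, 2133 and 2534 in disease and 1502, 2214 and 2573 in healthy control. In each of the 2 comparisons 5 of 6 RYGB libraries lay above the highest library of the other group, with RYGB replicate 3 the exception. The fold change was 0.35 ± 0.12 in RYGB against disease (adjusted p = 0.114) and 0.38 ± 0.12 in RYGB against healthy control (adjusted p = 0.0715). The comparison with healthy control was called by DESeq2 (adjusted p = 0.0314) and without RYGB replicate 3 (0.033) or healthy control replicate 4 (0.0307). Disease against healthy control gave 0.03 ± 0.12, with a 95% interval from -0.22 to 0.29.

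The HNF4 receptors were lowest in disease, without passing the threshold. Hnf4g had a lowest, median and highest value of 291, 377.1 and 515.8 in RYGB, of 163, 233.3 and 417.5 in disease and of 267.3, 417.3 and 455.5 in healthy control. In disease 5 of 6 libraries were below the lowest healthy control library, and disease replicate 6, at 417.5, was the exception. The means were 381.5 ± 78.3 in RYGB, 251.3 ± 88.3 in disease and 397.7 ± 66.1 in healthy control (SD, n = 6 each). The fold change of disease against healthy control was -0.70 ± 0.19 (adjusted p = 0.0684). Deviations of same-numbered disease and healthy control libraries were positively correlated, but the same number was the closest match in only 3 of 6 pairs. The labels state no pairing. With the replicate number as a block in these 2 groups, a fit chosen after seeing the data, Hnf4g was called (limma, adjusted p = 0.0407). With the block over all 18 libraries it was not (adjusted p = 0.105). It was also called by DESeq2 (0.0319) and without disease replicate 6 (0.00773) or healthy control replicate 5 (0.033), the lowest healthy control library at 267.3. In RYGB against disease the fold change was 0.64 ± 0.19 (adjusted p = 0.0622), called by DESeq2 (0.0335) and without disease replicate 6 (0.0111). RYGB and healthy control were close, at -0.06 ± 0.19 with a 95% interval from -0.46 to 0.33.

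Hnf4a had a lowest, median and highest value of 4718, 6628 and 9491 in RYGB, of 3106, 4757 and 6499 in disease and of 3571, 5853 and 7240 in healthy control. All 3 groups overlapped. Its fold change was 0.56 ± 0.20 in RYGB against disease (adjusted p = 0.125), -0.28 ± 0.20 in disease against healthy control (adjusted p = 0.658) and 0.28 ± 0.20 in RYGB against healthy control (adjusted p = 0.378). No setting and no left-out library changed these calls.

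Lhx1 and Esrrg varied more within the groups than between them. Lhx1 had a lowest, median and highest value of 424.8, 542.1 and 813.1 in RYGB, of 370.3, 417.5 and 954.2 in disease and of 365.1, 582.1 and 766.4 in healthy control. The single highest of all 18 values was disease replicate 5. Its fold changes were 0.21 ± 0.24 in RYGB against disease, -0.12 ± 0.24 in disease against healthy control and 0.09 ± 0.24 in RYGB against healthy control, with adjusted p from 0.65 to 0.904. Esrrg had a lowest, median and highest value of 927, 1175 and 1667 in RYGB, of 675.3, 1216 and 1781 in disease and of 1057, 1380 and 1686 in healthy control. The 6 disease libraries parted into 3 of 675.3 to 906.9 and 3 of 1524 to 1781. Esrrg fold changes were 0.11 ± 0.22 in RYGB against disease, -0.25 ± 0.22 in disease against healthy control and -0.14 ± 0.22 in RYGB against healthy control, with adjusted p from 0.702 to 0.814. Over the 3 comparisons the 95% intervals reached from -0.70 to 0.56 for Esrrg and from -0.61 to 0.70 for Lhx1. Each interval included 0, and changes inside an interval are not excluded in its comparison. The extremes come from different comparisons and are not limits of detection.

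**Figure D2:**
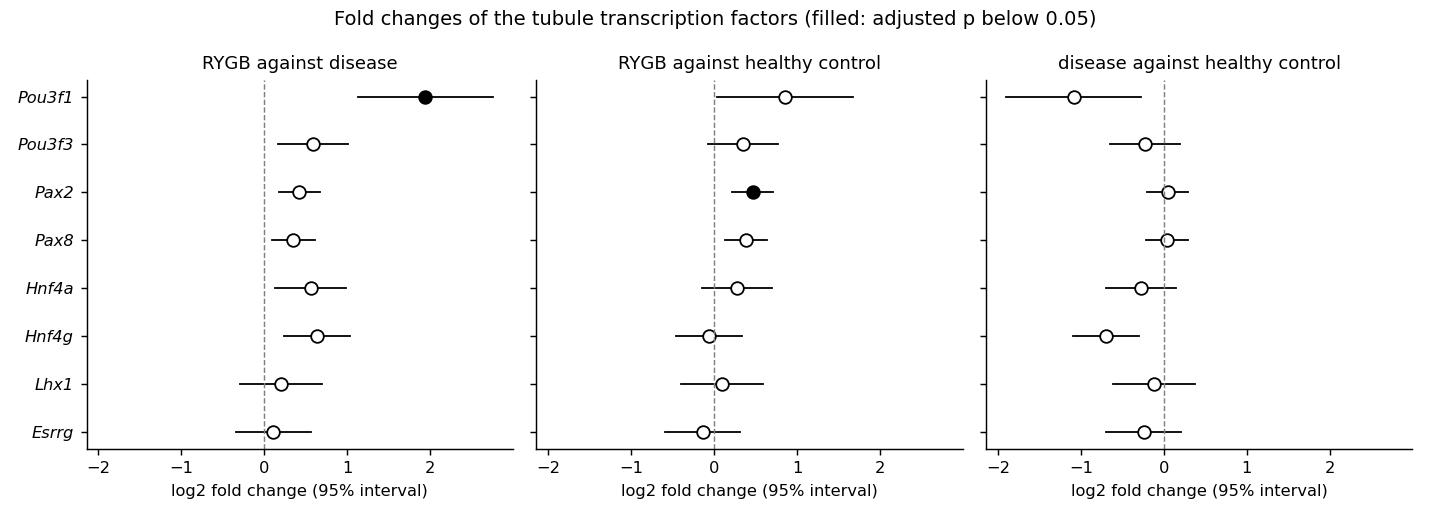
Log2 fold changes of the 8 genes (points) with 95% intervals (lines) in the 3 comparisons; filled points were called at an adjusted p below 0.05. All 8 points lie above 0 in RYGB against disease, and the filled points are Pou3f1 in that comparison and Pax2 in RYGB against healthy control.

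Counted together, 1 of 8 members was called in RYGB against disease, where 3.95% of all tested genes were called (1.84% as higher), and 6 of 8 had an unadjusted p below 0.05, as did 20.7% of all tested genes. The groups did not overlap in 2 members, Pou3f1 and Pax2, and in 2.60% of all genes (1.12% with RYGB higher). All 8 members had a positive fold change, with a median of 0.49, where 6977 of 13988 tested genes were positive and the median was -0.00087. Among the 552 called genes 258 were higher and 294 lower in RYGB, and 195 higher and 352 lower when values were scaled by the total in genes. In RYGB against healthy control 1 of 8 members was called, with 4.44% of all genes (2.46% as higher), and the groups did not overlap in 1 member, Pax2, and in 3.22% of all genes (1.82% with RYGB higher). Here 6 members were positive (median 0.32, against -0.013 over all genes). In disease against healthy control 0 of 8 members were called by limma, with 1.61% of all genes. In that comparison 2 members, Hnf4g and Pou3f1, had an unadjusted p below 0.05, as did 11.1% of all tested genes, DESeq2 called Hnf4g and edgeR called 0. The groups overlapped in all 8 members, and did not in 1.24% of all genes. There 6 members were negative (median -0.24, against 0.0016 over all genes). The comparisons share libraries, the disease libraries standing in both of the first and the last, so these directions are not separate observations.

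Within the groups some members varied together and some in opposite directions. After the group means were removed, 9 of the 28 member pairs were correlated over the 18 libraries (permutation within groups, adjusted p below 0.05 over the 28 pairs), 5 positively and 4 negatively. Pairs of other genes were not tested, so the share of all gene pairs that would pass is not known. The count is therefore not shown to be particular to the members. The closest pair was Pax2 and Pou3f3, with Pearson's r = 0.896 (permutation p = 1e-05, adjusted p = 0.00028; the smallest p that 100000 resamples can give) and Spearman's rho = 0.864 (permutation p = 0.0001, adjusted p = 0.0028). Without the 2 libraries farthest from the median of Pax2, r was 0.817. It was 0.659 within RYGB, 0.988 within disease and 0.832 within healthy control. Pou3f1 also moved with Pou3f3, at r = 0.596 (permutation p = 0.00777, adjusted p = 0.0281) and rho = 0.631 (permutation p = 0.00547, adjusted p = 0.0191). Without the 2 farthest libraries r was 0.56, and by group it was 0.91 in RYGB, 0.702 in disease and 0.298 in healthy control. Lhx1 was correlated with Pax2 and Pou3f3 but not past the threshold with Pou3f1 (r = 0.395, permutation p = 0.119, adjusted p = 0.239). Its r to Pax2 was 0.748 (permutation p = 0.00087, adjusted p = 0.00812) with rho = 0.666 (permutation p = 0.00503, adjusted p = 0.0191), and r was 0.694 without the 2 farthest libraries and 0.508, 0.841 and 0.791 within RYGB, disease and healthy control. Its r to Pou3f3 was 0.726 (permutation p = 0.00201, adjusted p = 0.0141) with rho = 0.709 (permutation p = 0.00187, adjusted p = 0.0175), and 0.597 without the 2 farthest libraries. Within RYGB that r was 0.301, within disease 0.906 and within healthy control 0.841. Pax2 and Pou3f1, the 2 genes in which RYGB and disease did not overlap, had r = 0.598 (permutation p = 0.00865, adjusted p = 0.0281), rho = 0.688 (permutation p = 0.00284, adjusted p = 0.0191) and r = 0.551 without the 2 farthest libraries, with 0.825, 0.639 and 0.536 within RYGB, disease and healthy control.

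Hnf4a ran opposite to Lhx1, Pou3f3 and Pax2, while its correlation with Pou3f1 did not pass (r = -0.35, permutation p = 0.177, adjusted p = 0.331, and 0.0511 within healthy control). Against Lhx1 its r was -0.764 (permutation p = 0.00078, adjusted p = 0.00812) and rho -0.752 (permutation p = 0.00141, adjusted p = 0.0175), with -0.758 without the 2 farthest libraries and -0.795, -0.912 and -0.526 within RYGB, disease and healthy control. Against Pou3f3 r was -0.672 (permutation p = 0.00568, adjusted p = 0.0281) and rho -0.692 (permutation p = 0.00517, adjusted p = 0.0191), with -0.747 without the 2 farthest libraries. This relation was -0.684 within RYGB and -0.908 within disease, but -0.171 within healthy control. Against Pax2 r was -0.654 (permutation p = 0.00904, adjusted p = 0.0281), -0.723 without the 2 farthest libraries, and rho -0.614 did not pass (permutation p = 0.0173, adjusted p = 0.0539). Within healthy control this r was -0.143. The RYGB library with the lowest Hnf4a, replicate 2 at 4718, had 785.1 of Lhx1, 481.9 of Pax2 and 629 of Pou3f3. In disease the lowest Hnf4a, 3106 in replicate 5, came with the highest Lhx1 (954.2), Pax2 (370) and Pou3f3 (547.3) of that group. Pax8 and Esrrg were the only negative pair past the threshold that did not include Hnf4a, with r = -0.583 (permutation p = 0.00894, adjusted p = 0.0281), rho = -0.674 (permutation p = 0.00484, adjusted p = 0.0191) and r = -0.589 without the 2 farthest libraries. The relatives Hnf4a and Hnf4g did not show a correlation past the threshold (r = 0.144, permutation p = 0.62), nor did Pax2 and Pax8 (r = 0.0651, permutation p = 0.797).

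**Figure D3:**
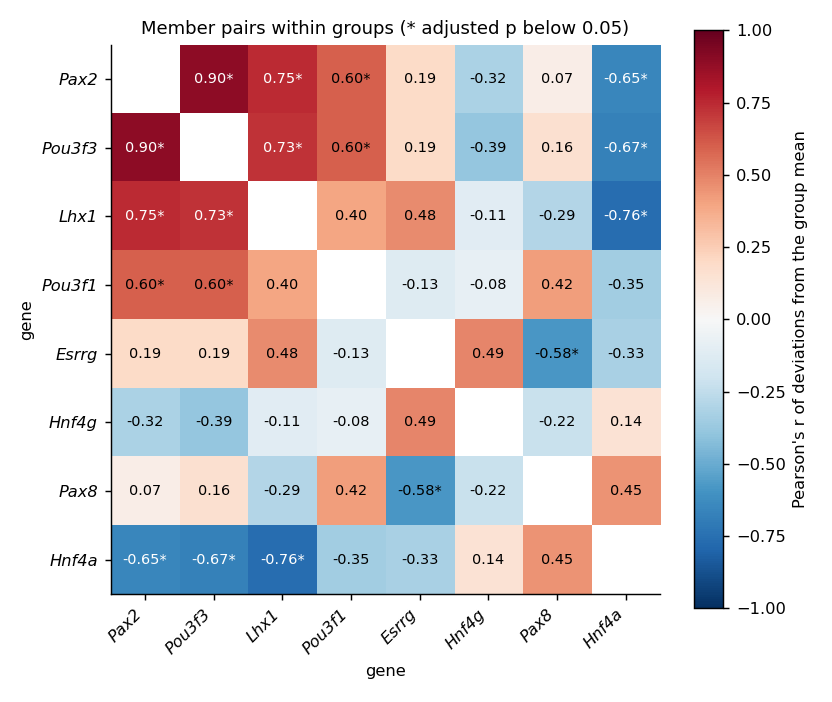
Pearson's r between members over 18 libraries, as deviations from the group mean of log2 values (colour and number); a star marks an adjusted p below 0.05 over 28 pairs. Pax2, Pou3f3 and Lhx1 form a block of positive values, and all 3 are negative to Hnf4a.

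Summed levels of segment markers varied across the same libraries. The summed level of 10 loop of Henle and thick ascending limb genes ran from 61938 to 151325 in RYGB, between 34397 and 103527 in disease and between 88365 and 120244 in healthy control. Its highest RYGB library was replicate 2 and its highest disease library replicate 5, the libraries named above for high Pax2, Pou3f3 and Lhx1. In healthy control the highest was replicate 5. Its Pax2 (275.7) and Lhx1 (574.9) lay below the medians of that group, while its Pou3f3 (423.6) lay above the median of 390. The lowest disease library was replicate 6, which also had the lowest Pax2 (230.8) and Pou3f3 (203.7) of its group. The summed level of 19 proximal tubule genes ran from 538572 to 955278 in RYGB, between 284882 and 722353 in disease and between 294337 and 643473 in healthy control. Its lowest libraries in the 3 groups, RYGB replicate 2, disease replicate 5 and healthy control replicate 1, were also those with the lowest Hnf4a. Fibroblast and pericyte genes differed between groups in part. Their summed level was 4947 to 7716 in RYGB, 9357 to 12507 in disease and 11369 to 11785 in healthy control other than replicate 4. That library, at 6091, lay within the RYGB range. Of these 7 genes, 4 fell in RYGB against disease and 3 fell in RYGB against healthy control. Of 6 endothelial genes 2 fell in RYGB against healthy control, Vwf (-1.29 ± 0.27, adjusted p = 0.0116) and Cdh5 (-0.54 ± 0.14, adjusted p = 0.0356; not called in 9 of 18 fits without 1 library). Of 7 leucocyte genes 1 fell, the macrophage receptor Mrc1, with a fold change of -1.75 ± 0.22 in RYGB against disease (adjusted p = 0.000334) and of -1.103 ± 0.22 in RYGB against healthy control (adjusted p = 0.0091). The part that the mix of segments and other cells in each piece of cortex had in the members' values was not tested.

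**Figure D4:**
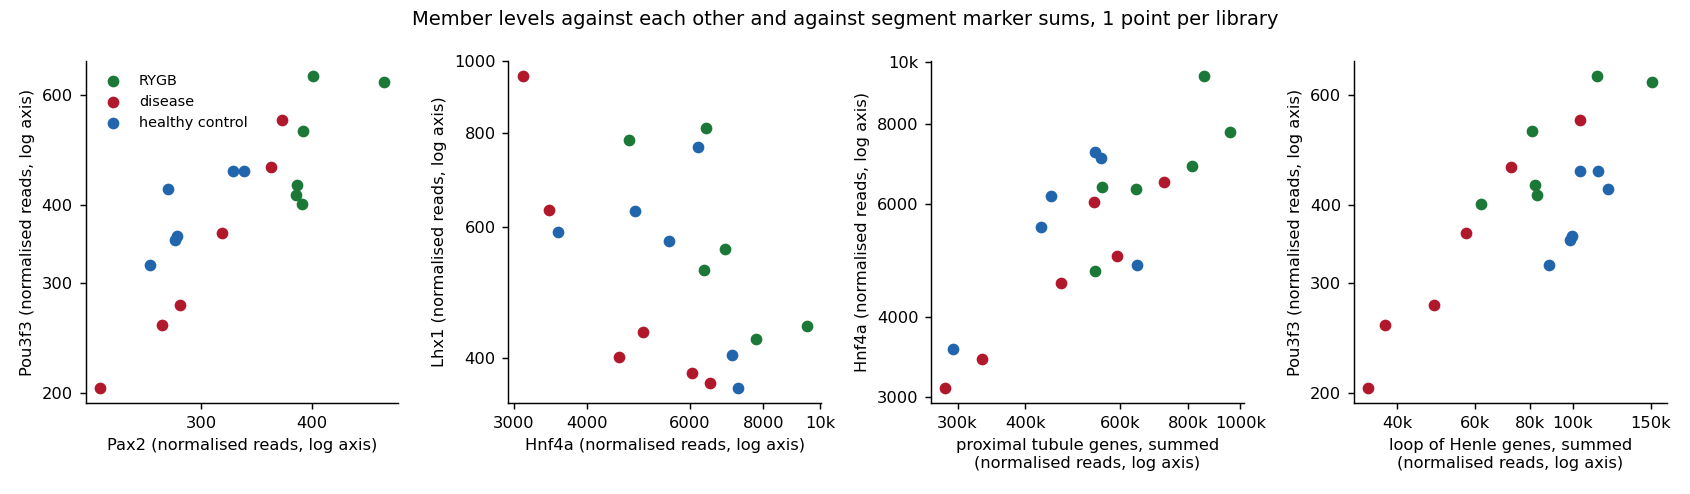
Levels per library on log axes: Pou3f3 against Pax2, Lhx1 against Hnf4a, Hnf4a against summed proximal tubule genes, and Pou3f3 against summed loop of Henle genes; colours are RYGB, disease and healthy control. Pax2 and Pou3f3 are high together, Lhx1 is low where Hnf4a is high, and the lowest Hnf4a libraries have the lowest proximal tubule sums.

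The segment lists themselves differed between groups in part. Of 10 loop of Henle genes 2 were lower and 0 higher in disease against healthy control, the tight junction gene Cldn10 (-0.80 ± 0.12, adjusted p = 0.000911) and uromodulin Umod (-1.36 ± 0.28, adjusted p = 0.0129; 0.161 after quantile normalization), and the list's median was -0.53. In RYGB against disease 3 rose and 0 fell, with a median of 0.29. By adjusted p the tight junction gene Cldn19 came first (1.09 ± 0.27, adjusted p = 0.0265), a call lost with scaling by the total in genes (0.0559), with the compared groups alone (0.0664) and when RYGB replicate 2 or 4 or disease replicate 1, 4 or 6 was left out (0.051 to 0.0695). Umod rose by 1.13 ± 0.28 (adjusted p = 0.0294) and was not called in 3 of 10 settings (0.0553 to 0.13) and in 6 of 18 fits without 1 library (0.0569 to 0.0729). Of 19 proximal tubule genes 4 fell in disease against healthy control, first by adjusted p the amino acid transporter Slc7a13 (-3.76 ± 0.64, adjusted p = 0.00335), with a median of -0.26. Between RYGB and disease 2 rose, first by adjusted p the glutathione-cleaving enzyme Ggt1 (1.45 ± 0.23, adjusted p = 0.00139), with a median of 0.59. Of 12 tubular injury genes 6 rose in disease against healthy control and 5 fell in RYGB against disease. By adjusted p the first of them was osteopontin Spp1, at 2.496 ± 0.23 (adjusted p = 5.58e-06) and -2.14 ± 0.23 (adjusted p = 5.41e-05). Between RYGB and healthy control 2 of the 12 rose, the cell cycle inhibitor Cdkn1a (1.62 ± 0.28, adjusted p = 0.00322) and the keratin Krt8 (0.83 ± 0.20, adjusted p = 0.0301; not called in 8 of 18 fits without 1 library), and 1 fell, Prom1 (-0.86 ± 0.11, adjusted p = 0.000497). The injury sum ran from 23372 to 27162 in RYGB, between 35755 and 60244 in disease and between 20605 and 29687 in healthy control, so disease lay apart from both other groups, as it did not in any member.

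Another 27 transcription factors of the tubule were in the table, and all of them were tested. Their counts stand beside the shares of all tested genes called by limma. These were 3.95% in RYGB against disease, 4.44% in RYGB against healthy control and 1.61% in disease against healthy control. Between RYGB and disease 1 rose and 0 fell, with a median of 0.16, and edgeR and DESeq2 each called 3. It was Sall1, a zinc-finger factor needed in mice for the kidney to form, with means of 3076 in RYGB and 2194 in disease (0.49 ± 0.13, adjusted p = 0.0343). In RYGB against healthy control 2 rose and 0 fell, with a median of 0.096. Sall1 again rose, by 0.50 ± 0.13 over a healthy control mean of 2181 (adjusted p = 0.0343). Sall1 against disease missed the threshold when any of 6 libraries was left out, which were RYGB replicates 1, 4, 5 and 6 and disease replicates 1 and 2 (0.055 to 0.0917), and likewise in fits with the replicate block (0.0579) or the compared groups alone (0.0553). Against healthy control it missed the threshold when RYGB replicate 1, 4, 5 or 6 or healthy control replicate 1, 3, 5 or 6 was left out (0.052 to 0.0949), and under the replicate block (0.0501). In disease against healthy control 0 of 27 were called by limma, where 3 had an unadjusted p below 0.05, edgeR called 1 and DESeq2 1, and the median was -0.11. The most abundant, the distal nephron factor Tfcp2l1, had means of 5209 in disease and 5711 in healthy control (-0.28 ± 0.30, adjusted p = 0.786).

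The genes whose levels over all 18 libraries were most like each member's were taken from 9390 genes with a symbol and a mean of at least 100. They were the highest of many values and carry no test, and all share the group differences and the library. Pou3f1 was closest to Cyp2d5 (Pearson's r of log2 values 0.935), Ggt1 (0.926) and Slc23a3 (0.918). Pou3f3 was closest to the glucose transporter Slc2a1 (0.963), Gas1 (0.936) and Diras3 (0.930), and Pax2 to Cnnm3 (0.925), Dact2 (0.912) and Vwa7 (0.903). Pax8 was closest to Urgcp (0.928), Pyroxd2 (0.924) and Acy3 (0.924). Hnf4a was closest to Ddah1 (0.965), Sfxn1 (0.935) and Enpp6 (0.932), and Hnf4g to Cpeb4 (0.843) and Pde4d (0.825). Lhx1 was closest to Celsr1 (0.9), Oxgr1 (0.894) and Esrp1 (0.877), and Esrrg to Vezf1 (0.943), Ptbp3 (0.942) and the DNA-demethylating enzyme Tet2 (0.932).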

How the data were processed

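RNA of kidney cortex was sequenced after stranded messenger RNA library preparation, per the labels' protocols. Each deposited value is a gene-level signal; no header states how the authors scaled it, but the values are whole reads divided by 1 factor per library, and DESeq2 is among the tools named. FastQC 0.11.2, MultiQC 0.9, HTSeq 0.6.1p1, DESeq2 and genome build Rnor 5.0 are named in the submitters' processing notes; the aligner, annotation release and strand setting of the counting were not given in the sources used here, so reads of a gene and of one overlapping it on the other strand may not have been kept apart. Of 18423 rows 3 name no gene and were left out: they hold 27.6 to 43.2% of a library's counted reads outside genes, 13.5 to 18.1% aligned to several places and 0.0695 to 0.114% ambiguous. Values came out as whole reads, within 0.01 reads, for at least 99.9946% of genes in each library. The 2 most alike libraries of a group still differed by far more than counting error (chi-square of 21.4 per degree of freedom).

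Groups were taken from sample titles. In R 4.3.3, limma 3.58.1 with its trend option was fitted to log2(value + 1) of 13988 genes with at least 10 in at least 6 libraries, with 3 group means over 18 libraries; p-values are two-sided with Benjamini-Hochberg adjustment within a comparison. On this scale the change of low genes is understated. On recovered whole reads edgeR 4.0.16 called 629 genes in RYGB against disease, 846 in RYGB against healthy control and 224 in disease against healthy control, and DESeq2 1.42.0 called 1098, 1602 and 410; both were alternatives. Of these fits only limma was tested on simulated data, in disease against healthy control. The same replicate numbers, 1 to 6, stand in every group. Deviations of same-numbered libraries correlated at 0.131 to 0.324 over genes in all 6 disease and healthy control pairs. In 3 of these 6 pairs the same number was the closest match. The correlations were -0.557 to 0.309 for RYGB and disease and -0.310 to 0.0141 for RYGB and healthy control. The main fit was unpaired in every comparison. A block on the replicate number, over all libraries or in disease and healthy control alone, was an alternative only. Pairs of members were tested with 100000 permutations within groups. Members and lists were chosen with earlier results of these data known; the rule named all members, up to 3 called genes per list and the 3 genes most like each member; a few named by it are not reported here. RefSeq tables of build GRCr8 served for gene names and promoters only. Figures were drawn with matplotlib 3.10.9.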

Additional observations from a re-analysis of the deposited data

Results flagged for a closer look

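In 24 groups of 6 values (8 members in 3 groups), 2 held a library whose gap to its nearest neighbour, as a share of the group's range, was above the 95% limit of Dixon's test, which chance passes in about 1 of 20 groups. Pax2 in RYGB replicate 2 was 481.9, above the other RYGB libraries at 383.6 to 400.7 (gap 0.826 of the range). Hnf4g in healthy control replicate 5 was 267.3, below the other healthy control libraries at 407.2 to 455.5 (gap 0.743 of the range).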

How the results depend on the processing

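Alternatives were pseudocounts 0.5 and 5, no filter, a minimum of 50, scaling by the total in genes, quantile normalization, edgeR, DESeq2, the compared groups alone, the replicate block and leaving out each of 18 libraries; the block with disease and healthy control alone was chosen after seeing the data. Genes called in disease against healthy control were 143 with the minimum of 50 and 410 by DESeq2, against 225. They were 1098 by DESeq2 in RYGB against disease, against 552, and 1602 by DESeq2 and 1442 with the compared groups alone in RYGB against healthy control, against 621. Members called in RYGB against disease were 2 with quantile normalization, 2 by edgeR and 3 by DESeq2, against 1. In RYGB against healthy control they were 0 with scaling by the total and 2 by DESeq2, against 1, and in disease against healthy control 1 by DESeq2 and 1 with the block in those 2 groups, against 0. Without 1 library genes called ran from 261 to 819 in RYGB against disease, from 209 to 1506 in RYGB against healthy control and from 126 to 312 in disease against healthy control, and members called from 1 to 3, 0 to 2 and 0 to 1. Near-zero folds changed sign without 1 library: in disease against healthy control Pax2 ran from -0.016 to 0.12 (-0.0082 without disease replicate 2) and Pax8 from -0.066 to 0.089 (-0.0093 and -0.0058 without disease replicates 3 and 4). Between RYGB and disease Esrrg ran from -0.044 to 0.24, and in RYGB against healthy control Hnf4g from -0.17 to 0.0091 and Lhx1 from -0.021 to 0.19 (-0.00042 and -0.011 without RYGB replicates 2 and 3). The replicate block called 408, 496 and 158 genes in RYGB against disease, RYGB against healthy control and disease against healthy control, and 252 in the last with those 2 groups alone; among the members it changed no call other than that of Hnf4g. The cause of these changes was not tested. With 10 reads behind the lowest value, Pou3f1 carries the largest counting error of the members.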

Other observations

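Genes known as targets of oestrogen-related receptors, of which ESRRG is one, were counted in the same way. The list held 18 such genes, mitochondrial apart from the receptor gene Esrra. Of these, 0 were called by limma in RYGB against disease, as were 3.95% of all tested genes. There 14 fold changes were negative and 4 positive (median log2 fold change -0.16). An unadjusted p below 0.05 was found for 5, and for 20.7% of all tested genes, while edgeR called 0 and DESeq2 1. In disease against healthy control limma, edgeR and DESeq2 each called 0, where limma called 1.61% of all tested genes. An unadjusted p below 0.05 was found for 0 of the list and 11.1% of all tested genes (list median 0.088). In RYGB against healthy control, where 4.44% of all tested genes were called, 1 of the list fell. It was cytochrome c Cycs (-0.76 ± 0.18, adjusted p = 0.0209), not called without healthy control replicates 1, 3 or 6 (0.0508 to 0.0573). The table held 11 family relatives of the members, of which 4 were tested, and limma called 0 of them in the 3 comparisons. In RYGB against disease and in RYGB against healthy control 1 had an unadjusted p below 0.05 and DESeq2 called 1; edgeR called 0 throughout. The relative Esrra, counted in both of these lists, had means of 1836 in RYGB, 1419 in disease and 1195 in healthy control. Its fold change in RYGB against healthy control was 0.63 ± 0.19 (adjusted p = 0.0639), called by DESeq2 (0.0269), with the compared groups alone (0.04) and without RYGB replicate 3 (0.0217), disease replicate 3 (0.0463) or disease replicate 6 (0.0499).

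Of 7 collecting duct principal cell genes 2 fell and 0 rose in RYGB against disease (median -0.31), of which the water channel Aqp4 had the lowest adjusted p (-1.20 ± 0.24, adjusted p = 0.00878). The other, the water channel Aqp3 (-0.62 ± 0.17, adjusted p = 0.0444), was not called in 6 of 10 settings (0.0505 to 0.0909), edgeR included, nor in 14 of 18 fits without 1 library (0.051 to 0.11). Of 6 intercalated cell genes limma, edgeR and DESeq2 called 0 in each of the 3 comparisons, and 1 had an unadjusted p below 0.05, in RYGB against disease.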
